A study of Mus musculus with 16 samples.

Results

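The genes of major histocompatibility complex (MHC) class II presentation were followed across the cell types of liver-draining lymph nodes in a mouse model of cholestasis. The set held 10 of the 32285 genes in the matrices, chosen by their known roles: H2-Aa, H2-Ab1, H2-Eb1, Cd74, H2-DMa, H2-DMb1, H2-DMb2, H2-Oa, H2-Ob and Ciita. All 10 were found in each of the 3 libraries. In the study, young adult male C57BL/6J mice were fed DDC (diethoxycarbonyl-dihydrocollidine, 0.1% of the chow), which injures the bile ducts, and hepatoduodenal and celiac nodes were pooled for single-cell RNA sequencing with 11 surface antibody tags (CITE-seq). The groups were D0 (no DDC), D5 (titled D5 and described as D6) and D19, with 1 library per day and an unstated number of mice in each. Live singlets, CD45+ CD11c- cells, CD45+ CD11c+ cells, Pdpn+ cells and CD45- Pdpn- cells had been sorted and mixed in equal parts, so the numbers of cells per lineage followed the sort as well as the tissue.

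MHC class II molecules carry peptides from endocytosed proteins to the surface of antigen-presenting cells, where CD4+ T cells read them. H2-Aa and H2-Ab1 encode the α and β chains of I-A, and H2-Eb1 encodes the β chain of I-E, whose α chain gene is disrupted in C57BL/6 mice. Cd74, the invariant chain, fills and escorts the new class II dimer. H2-DM, made of H2-DMa with H2-DMb1 or H2-DMb2, exchanges the remnant of the invariant chain for peptide, H2-O (H2-Oa with H2-Ob) inhibits H2-DM, and Ciita is the coactivator that switches on the whole set at a shared promoter element. Dendritic cells (DC) are known to shut down class II synthesis as they mature while keeping loaded class II at the surface.

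The stretches that match the shared element are shown first, since the element is the known link between Ciita and the other members. RefSeq promoters (GRCm38.p6, 250 bases before to 50 after each start) were listed for 7 of the 10 genes, and H2-Ab1, Cd74 and Ciita had none in the table. Both strands were searched for an X-box-like stretch (AACNNATG) and the Y box (TGATTGG, the reverse of a CCAAT box), the X letters having been set with these promoters in view. The matches are printed 5′ to 3′ on the gene's strand with the matching letters in capitals. The intervals are chr17:34305768-34305822 (plus strand) for H2-Eb1, chr17:34153089-34153144 (plus) for H2-DMb1, chr17:34145118-34145173 (plus) for H2-DMb2, chr17:34238810-34238862 (plus) for H2-Ob, chr17:34287857-34287918 (minus) for H2-Aa and chr17:34092289-34092350 (plus) for H2-Oa.
H2-Eb1: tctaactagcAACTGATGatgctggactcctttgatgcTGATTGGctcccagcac
H2-DMb1: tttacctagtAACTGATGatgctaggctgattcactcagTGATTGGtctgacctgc
H2-DMb2: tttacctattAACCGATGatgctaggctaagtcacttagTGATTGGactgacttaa
H2-Ob: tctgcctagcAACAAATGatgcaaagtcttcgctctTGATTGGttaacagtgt
H2-Aa: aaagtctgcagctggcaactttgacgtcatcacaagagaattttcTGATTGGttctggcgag
H2-Oa: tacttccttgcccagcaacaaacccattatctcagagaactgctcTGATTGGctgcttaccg

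The first 4 of these held both patterns, with 20 bases between them in H2-Eb1, 21 in H2-DMb1 and H2-DMb2, and 18 in H2-Ob. The last 2 held the Y box without a match to these X letters, and neither H2-DMa window matched either pattern. Since 1 set of X letters was searched, a missing match does not show that a promoter lacks an X box. The Y box letters occurred in 7.82% of all 32851 promoters of this length and the X letters in 8.86%. The pair, X then Y on the gene's strand with 10 to 40 bases between, occurred in 13 promoters (0.0396%), 4 of them members and 1 of them H2-Eb2, another class II gene of the locus. H2-DMb1 and H2-DMb2, whose stretches are alike, differed in the lineage with the highest level, as given below. A match describes the letters in the window and is not evidence of binding.

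Barcodes with at least 1000 RNA UMIs (unique molecular identifiers, each counted as 1 molecule) numbered 6702 at D0, 6693 at D5 and 7138 at D19, with medians of 4905, 4774 and 3344.5 UMIs. Lineages were gated by UMIs of other genes, none of them a member: Ccr7 and Fscn1 at 1 or more each for mature DC, Xcr1 plus Clec9a at 2 or more for type 1 conventional DC (cDC1), Siglech at 2 or more for plasmacytoid DC (pDC), Cd79a and Ms4a1 at 1 or more each for B cells, and Col3a1 plus Dcn at 3 or more for stromal cells. Barcodes that met several gates (188, 217 and 136 at D0, D5 and D19) were counted in none. The gates held 385, 550 and 1072 mature DC, 117, 33 and 45 cDC1, 300, 151 and 161 pDC, 1995, 3140 and 1561 B cells, and 4, 32 and 85 stromal barcodes, or 9631 of 20533 barcodes in all. Only 10 to 13 barcodes were shared by any pair of libraries. The median mitochondrial share of UMIs was 1.30%, 2.06% and 2.18% in mature DC and 1.14%, 1.83% and 1.83% in cDC1 at D0, D5 and D19. It was 2.43%, 4.13% and 3.43% in pDC and 2.40%, 3.82% and 4.28% in B cells. What part this had in the class II levels was not tested.

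The gates were checked against marker genes they did not use. The summed level of 8 mature DC markers (Ccl22, Ccl17, Cacnb3, Tmem123, Il4i1, Socs2, Cd63, Relb) was 3921, 4922 and 4417 CPM (UMIs of a gene per 1e6 RNA UMIs of the group) in mature DC at D0, D5 and D19, against 74 to 215 CPM in cDC1, 530 to 1049 CPM in stromal barcodes and 601 to 1720 CPM in free RNA. The summed level of 6 pDC markers (Bst2, Ly6d, Ccr9, Tcf4, Runx2, Cox6a2) was 13783, 10747 and 10577 CPM in pDC, and that of 6 B cell markers was 5307, 4518 and 3832 CPM in B cells. The 6 cDC1 markers (Irf8, Wdfy4, Cadm1, Naaa, Tlr3, Itgae) did not set cDC1 apart from pDC, with 2179, 2355 and 2283 CPM in cDC1 and 2454, 2311 and 2055 CPM in pDC, while they stood at 148 to 180 CPM in mature DC, so cDC1 rest on the Xcr1 and Clec9a gate. The stromal list reached 1387, 5212 and 3000 CPM in the stromal gate and at most 18 CPM in the other 4, although Ccl19 was at 0 in the 4 stromal barcodes of D0. T cells served as the lineage that should lack class II, gated at 2 or more UMIs of Cd3d, Cd3e and Cd3g with no other gate met (2567, 1624 and 2475 barcodes).

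Each day was 1 library, so no test between days was possible and no p-value is given. Intervals are exact 95% intervals (Poisson for a level, conditional for a ratio, Clopper-Pearson for a share) and cover counting error only, not the spread between mice. A gene was counted past the fold where log2((CPM + 10)/(CPM + 10)) was at least 1 in size, among genes at 50 or more CPM in either group. The libraries were made from 3' ends, so a gene's level is compared across groups and not with another gene's level.

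In mature DC the class II set was lower by about 2-fold at D19 than at D0, and its order at D0 and D5 depended on the barcodes kept (D5 to D0 log2 ratio 0.09, or -0.23 in barcodes without T cell transcripts). The 10 genes together made up 22498 CPM at D0 (95% interval 22334 to 22663), 23906 CPM at D5 (23766 to 24048) and 11045 CPM at D19 (10961 to 11130). The D19 to D0 log2 ratio was -1.03 (-1.04 to -1.01), a level 2.04-fold lower, which was under 2-fold with gates 1 UMI stricter (-0.87) and after rescaling by the median ratio of genes (-0.97). In cDC1 the sum was 46873, 45184 and 40568 CPM, a log2 ratio of -0.21 (-0.23 to -0.19) at D19. In pDC it was 22850, 16183 and 7827 CPM, a log2 ratio of -0.50 (-0.52 to -0.48) at D5 and -1.55 (-1.58 to -1.51) at D19. B cells had 31358, 26131 and 22306 CPM, with a log2 ratio of -0.49 (-0.50 to -0.48) at D19. The order of the lineages at each day was cDC1, then B cells, with mature DC above pDC at D5 and D19. At D0 the order of mature DC and pDC was not stable, with 22498 and 22850 CPM in all barcodes, 30960 and 23187 CPM in those without T cell transcripts, and 20640 and 23236 CPM with gates 1 UMI stricter.

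**Figure D1:**
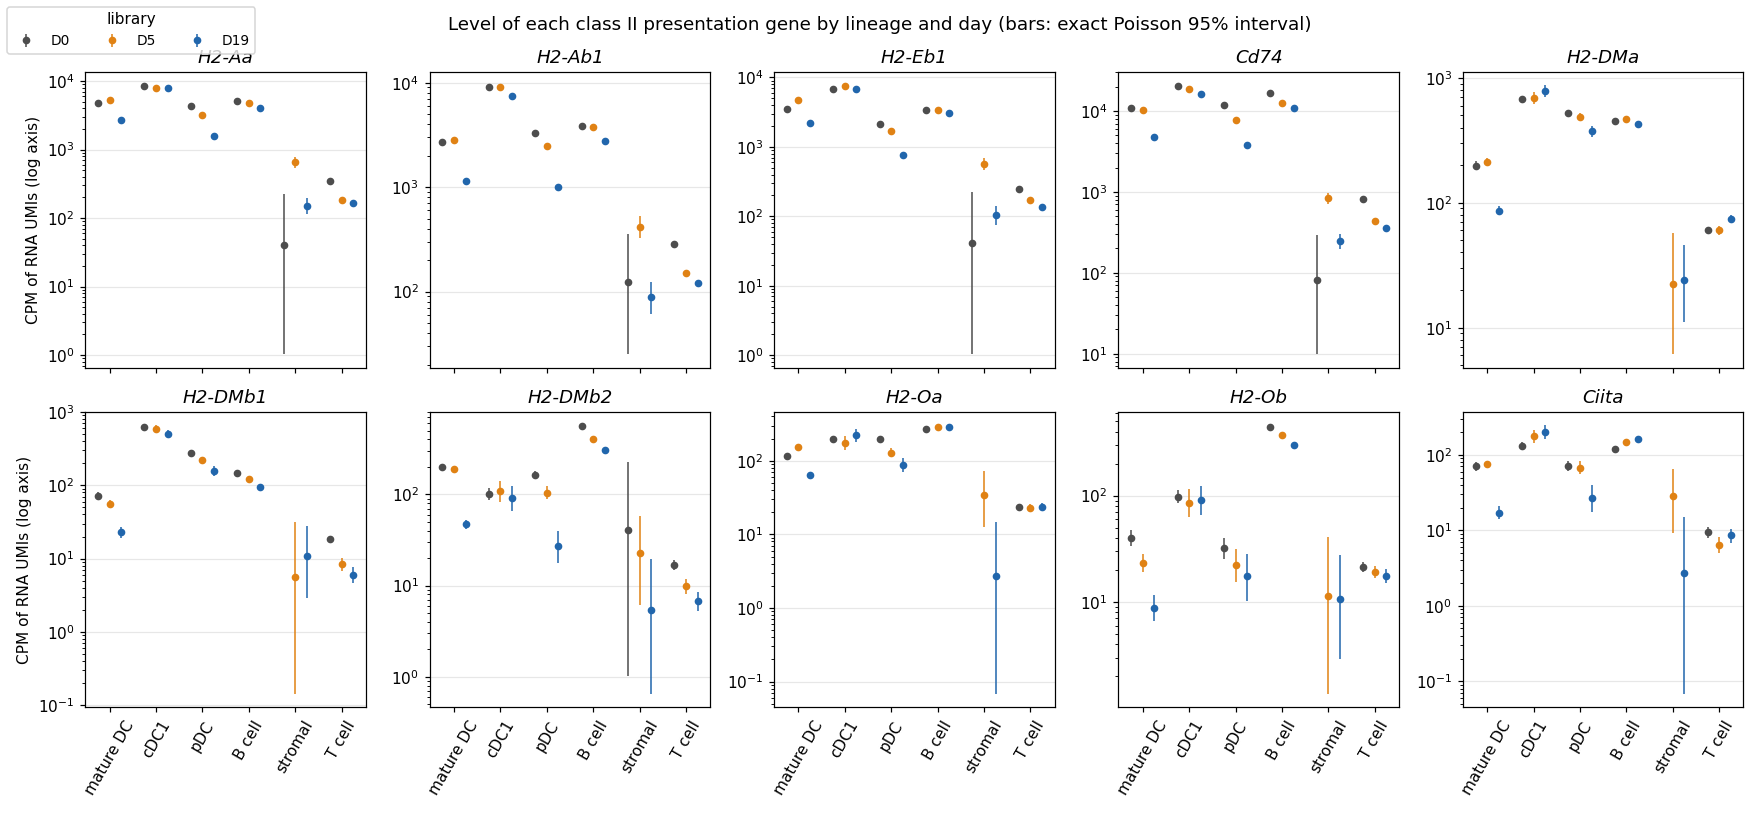
Level of each gene (CPM of RNA UMIs, log axis, with a separate range in each panel) in 5 lineages and in T cells at D0, D5 and D19, 1 library per day; points are UMI sums and bars exact Poisson 95% intervals, and groups with 0 UMIs are not drawn. The D19 points of mature DC and pDC sit below their D0 and D5 points in all 10 panels, and those of cDC1 differ from D0 by log2 ratios of -0.33 to 0.61.

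Background RNA was measured in the same way. T cells held 1852, 1070 and 919 CPM of the 10 genes at D0, D5 and D19, and barcodes of 10 to 100 UMIs, which carry free RNA, held 17377, 13622 and 8193 CPM. The median T cell barcode held 210, 270 and 0 CPM, so the pooled T cell level lay above that of a typical T cell. The sum in mature DC was 12.1-fold, 22.3-fold and 12.0-fold that in T cells at D0, D5 and D19. Free RNA and T cells were thus also lower in class II at D19 than at D0, and the share of free RNA in mature DC, estimated from T cell transcripts, was 49.9%, 35.3% and 37.3%. These shares count T cells caught in the gate too. With free RNA subtracted at the share estimated for each lineage, the log2 ratio of the sum at D19 against D0 was -1.15 in mature DC and -1.61 in pDC.

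The count of genes past the fold separated mature DC and pDC from cDC1 and B cells. At D19 against D0 in mature DC, 9 of the 10 genes were at 50 or more CPM in either group and 6 of them were lower by 2-fold or more, set beside 7.35% of 2586 genes past the fold in either direction. In pDC 7 of 9 were lower by 2-fold or more, beside 7.42% of 2886 genes. No member passed in cDC1 (8.59% of 2468 genes did) or in B cells (4.59% of 2482). At D5 against D0 no member passed in any of the 4 lineages, where 2.85% of genes did in mature DC, 4.61% in cDC1, 2.72% in pDC and 1.56% in B cells. The median log2 difference of the members at D19, with 10 CPM added, was -1.22 in mature DC and -1.31 in pDC against -0.11 in cDC1 and -0.41 in B cells, while that of all genes measured lay between -0.09 and 0.00 in these 4 lineages. Whether the change differed between lineages could not be tested with 1 library per day.

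**Figure D2:**
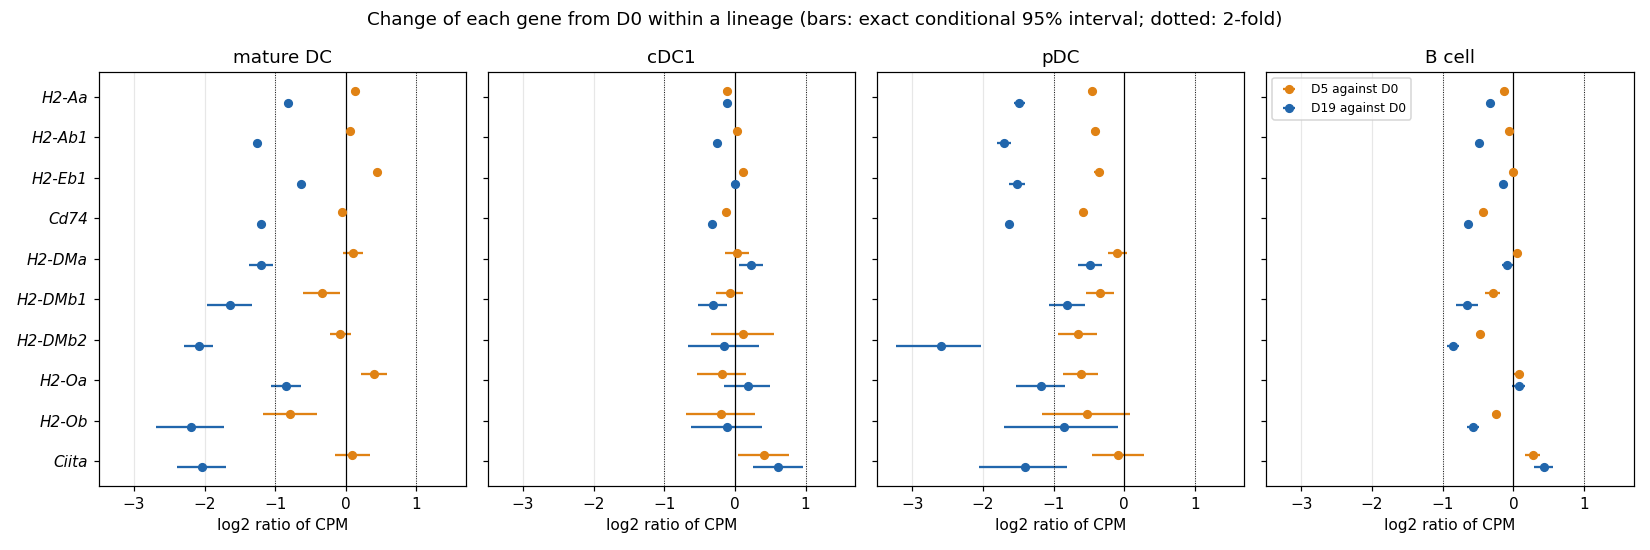
Log2 ratio of CPM at D5 and at D19 against D0 for each gene in 4 lineages, with exact conditional 95% intervals and dotted lines at 2-fold. In mature DC the D19 ratios lie between -2.19 and -0.64 and the D5 ratios between -0.79 and 0.44, while in cDC1 every ratio lies between -0.33 and 0.61.

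Among the chains of the class II dimer, H2-Ab1 was the most reduced in mature DC at D19 against either earlier day. The least reduced was H2-Eb1 against D0 and H2-Aa against D5 (log2 ratio -0.96, with -1.08 for H2-Eb1). H2-Ab1, the I-A β chain, stood at 2730 CPM (2673 to 2788) at D0, 2835 (2786 to 2884) at D5 and 1145 (1118 to 1173) at D19, a log2 ratio of -1.25 (-1.30 to -1.21) at D19. H2-Aa, the I-A α chain, stood at 4765, 5237 and 2691 CPM, a log2 ratio of -0.82 (-0.86 to -0.79). H2-Eb1 was higher at D5 (4729 CPM) than at D0 (3486 CPM), by 0.44 on the log2 scale (0.41 to 0.47), and lower at D19 (2243 CPM, log2 ratio -0.64, -0.67 to -0.60). The levels of D19 thus lay below those of both earlier days for each of the 3 chains.

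The same chains in the other lineages gave a different picture for cDC1 and the same direction for pDC. In cDC1, H2-Aa was 8541, 7887 and 7899 CPM, H2-Ab1 9007, 9171 and 7524 CPM, and H2-Eb1 6898, 7476 and 6876 CPM, so H2-Eb1 differed from D0 by -0.00 (-0.06 to 0.05) on the log2 scale at D19. In pDC, H2-Aa was 4378, 3177 and 1565 CPM and H2-Ab1 3283, 2468 and 1013 CPM, with log2 ratios of -1.48 (-1.56 to -1.41) and -1.70 (-1.79 to -1.60) at D19. In B cells H2-Eb1 was 3391, 3375 and 3054 CPM, and H2-Ab1 was 3886, 3728 and 2760 CPM. H2-Ab1 made up 51.3%, 53.8% and 48.8% of the UMIs of H2-Ab1 plus H2-Aa in cDC1, 42.9%, 44.2% and 40.2% in B cells, and 36.4%, 35.1% and 29.9% in mature DC at D0, D5 and D19. The intervals of these shares did not overlap between mature DC and either other lineage at any day.

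Cd74, the invariant chain, was detected in 91.6% or more of mature DC on each day and in 97.8% or more of cDC1 and B cells. Its level in mature DC was 10822 CPM (10708 to 10936) at D0, 10396 (10304 to 10490) at D5 and 4719 (4664 to 4775) at D19, a log2 ratio of -1.20 (-1.22 to -1.17) between D19 and D0. In pDC it was 11753, 7808 and 3800 CPM, lower at each step. cDC1 had 20603, 18827 and 16378 CPM. B cells had 16912, 12515 and 10810 CPM, where most of the difference was already present at D5 (log2 ratio -0.43, -0.44 to -0.42). T cells had 817, 434 and 360 CPM, with a UMI of Cd74 in 37.7%, 44.6% and 13.6% of barcodes at median depths of 5368, 6233 and 3670 UMIs, and free RNA had 8490, 5378 and 3332 CPM.

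After thinning each barcode to 1000 UMIs, which left out no barcode, Cd74 was detected in 88.1%, 83.8% and 66.6% of mature DC at D0, D5 and D19, in 95%, 92.7% and 76.4% of pDC, and in 97.0% or more of cDC1 and B cells. Before thinning the shares were 95.3%, 96.7% and 91.6% in mature DC, whose median depths were 7105, 7779 and 4636.5 UMIs, and 99.0%, 98.0% and 88.2% in pDC. The T cell share after thinning was 12.2%, 10.9% and 6.87%. Thus the lower share of mature DC and pDC with Cd74 at D19 was seen at equal depth.

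The peptide exchange factor H2-DM was lower in mature DC than in any other antigen-presenting lineage for 2 of its chains. H2-DMa, the α chain, stood at 199 CPM (183 to 215), 213 (200 to 227) and 86.7 (79.4 to 94.5) in mature DC, a log2 ratio of -1.20 (-1.37 to -1.03) at D19. In cDC1 it was 674, 689 and 786 CPM, in pDC 521, 487 and 372 CPM, and in B cells 455, 470 and 429 CPM. T cells had 60.2, 60.1 and 74.3 CPM, so the D19 level of mature DC had an interval that overlapped that of T cells (69.1 to 79.7). H2-DMa made up 6.86%, 12.1% and 17.1% of the UMIs of H2-DMa plus Cd74 in T cells, against 3.30%, 5.01% and 4.74% in free RNA. The T cell level of H2-DMa is therefore not shown to be background alone. Free RNA held 676 of 2334878, 1232 of 4341726 and 143 of 862210 UMIs of H2-DMa (166 CPM at D19). Mature DC lay below free RNA at each day, so their H2-DMa level is not shown to exceed it. H2-DMb1, a β chain, stood at 71.4, 56.4 and 22.9 CPM in mature DC and at 621, 589 and 498 CPM in cDC1, where the level at D0 was 8.7-fold that in mature DC. Free RNA held more H2-DMb1 than mature DC at each day, with 320 of 2334878 UMIs at D0 and 53 of 862210 at D19. The H2-DMb1 level of mature DC is thus not shown to be above free RNA.

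H2-DMb2, the other β chain, had its own lineage pattern. It was highest in B cells, at 558 CPM (542 to 574), 402 (392 to 412) and 309 (293 to 325), while cDC1 had 101, 109 and 91.0 CPM. Mature DC had 199, 188 and 46.9 CPM, a log2 ratio of -2.08 (-2.29 to -1.88) at D19, and pDC had 164, 104 and 27.1 CPM, a log2 ratio of -2.60 (-3.23 to -2.02). H2-DMb2 was above the cDC1 level in mature DC at D0 (log2 difference 0.97, 0.74 to 1.22) and below it at D19 (-0.96, -1.43 to -0.45). Free RNA held 493 of 2334878, 683 of 4341726 and 65 of 862210 UMIs of H2-DMb2 at D0, D5 and D19. That was more than mature DC at D0 and D19 and more than pDC at each day. The estimated share of free RNA at D0 was 49.9% in mature DC and 14.6% in cDC1. What part free RNA had in the order of mature DC and cDC1 was not tested. The pair of β chain genes are near-identical copies, so the split of reads between them by the counting software is uncertain.

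As a share of the UMIs of both β chain genes, H2-DMb1 made up 86.0%, 84.4% and 84.6% in cDC1 at D0, D5 and D19 and 21.0%, 23.1% and 23.3% in B cells. Mature DC were nearer to B cells, at 26.4%, 23.1% and 32.8%, from an H2-DMb1 level below that of free RNA. pDC lay between, at 62.8% (59.9 to 65.7) and 67.7% (63.3 to 72.0) at D0 and D5, and reached 85.4% (79.3 to 90.2) at D19, where 178 UMIs were counted. Free RNA had 39.4%, 35.9% and 44.9%. The share in cDC1 was thus above that of mature DC and B cells at all 3 days, mature DC and B cells were level at D5, and pDC were level with cDC1 at D19.

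**Figure D3:**
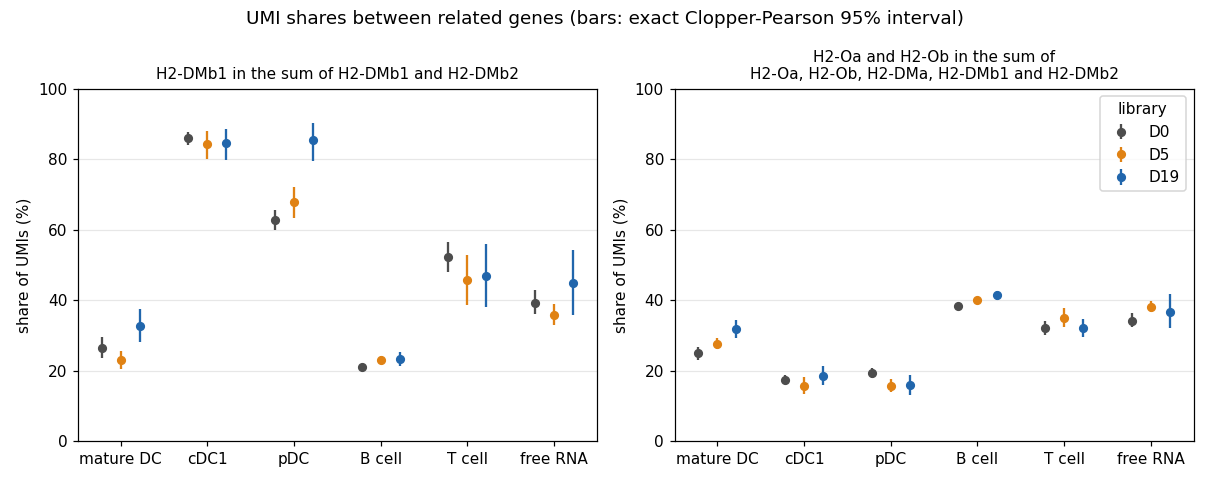
Left, share of H2-DMb1 in the UMIs of H2-DMb1 plus H2-DMb2 (%); right, share of H2-Oa plus H2-Ob in the UMIs of all H2-O and H2-DM chain genes (%), by lineage and day, 1 library per day, with exact Clopper-Pearson 95% intervals. In the left panel cDC1 lie at 84.4% to 86.0% and B cells at 21.0% to 23.3%, and in the right panel B cells lie at 38.3% to 41.4% and cDC1 at 15.8% to 18.6%.

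Of the inhibitor H2-O, the β chain H2-Ob was highest in B cells and was at or below T cell levels in mature DC at D19. H2-Ob stood at 445 CPM (432 to 459), 375 (365 to 385) and 299 (284 to 315) in B cells and at 98.1, 85.9 and 91.0 CPM in cDC1. In mature DC it was 40.4 CPM (33.7 to 48.0), 23.4 (19.2 to 28.2) and 8.85 (6.63 to 11.6), while T cells had 21.3, 19.2 and 17.5 CPM. Mature DC were therefore above T cells at D0 alone, their interval overlapping that of T cells at D5 and lying below it at D19. H2-Ob in pDC, at 32.2, 22.4 and 17.7 CPM, overlapped T cells at D5 and D19. Free RNA held 175, 157 and 78.9 CPM of H2-Ob, more than mature DC or pDC at any day and more than cDC1 at D0 and D5. With free RNA subtracted at the shares given above, no H2-Ob was left in mature DC at any day, so no ratio is given for it.

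H2-Oa, the α chain, was more even across lineages, at 274, 290 and 288 CPM in B cells, 197, 174 and 223 CPM in cDC1, 198, 129 and 87.6 CPM in pDC and 115, 152 and 64.3 CPM in mature DC. Its log2 ratio of D5 to D0 in mature DC was 0.40 (0.22 to 0.59), or 0.13 (-0.09 to 0.36) in barcodes without T cell transcripts, and its D19 level was below that of D0 (-0.84, -1.05 to -0.63). Free RNA held 368 of 2334878, 739 of 4341726 and 84 of 862210 UMIs of H2-Oa at D0, D5 and D19. Mature DC lay below free RNA at each day and pDC at D5 and D19, so these levels are not shown to exceed it. H2-O chains made up 38.3%, 40.1% and 41.4% of the UMIs of all H2-O and H2-DM chains in B cells, 17.4%, 15.8% and 18.6% in cDC1, and 24.9%, 27.7% and 31.9% in mature DC. T cells had 32.0%, 35.0% and 32.1% and free RNA 34.3%, 38.2% and 36.8%, so the D19 share of mature DC (29.4 to 34.4) lay at the T cell share, and its D0 share (23.0 to 26.9) lay below it.

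Ciita, the coactivator of the set, was lower at D19 than at D0 in mature DC and pDC and higher in cDC1 and B cells. In mature DC it stood at 70.8 CPM (61.9 to 80.6) at D0, 75.5 (67.8 to 83.8) at D5 and 17.2 (14.0 to 20.9) at D19, a log2 ratio of -2.04 (-2.39 to -1.70), or 4.12-fold lower. In pDC it was 71.8, 67.8 and 27.1 CPM, the last from 26 UMIs (log2 ratio -1.40, -2.06 to -0.81). In cDC1 it was 132 CPM (116 to 149), 176 (141 to 216) and 201 (163 to 247), a log2 ratio of 0.61 (0.25 to 0.96), and in B cells 120, 146 and 162 CPM, a log2 ratio of 0.43 (0.29 to 0.56). T cells had 9.45, 6.45 and 8.55 CPM. The D19 level of mature DC was 2.01-fold that of T cells (log2 difference 1.01, 0.58 to 1.44). The D19 levels of mature DC and pDC lay below that of free RNA, where 33 of 862210 UMIs were Ciita. The excess over T cells thus does not show a level above free RNA. In B cells Ciita was thus higher at D19 than at D0 while Cd74 was lower.

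Ciita UMIs were found in 24.4%, 27.5% and 6.06% of mature DC at D0, D5 and D19 and in 2.30%, 2.16% and 2.34% of T cells. After thinning to 1000 UMIs the shares were 6.49%, 5.82% and 2.05% in mature DC and 0.429%, 0.369% and 0.646% in T cells. In B cells the thinned shares were 12.5%, 14.2% and 16.4%. Within mature DC the order of days was the same with and without thinning for D19, which was lowest in both.

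The single-barcode values showed that mature DC were spread over a wide range of class II and that cDC1 and B cells were not. The sum of the 10 genes per barcode had a median of 12314 CPM in mature DC at D0, with 10% of barcodes below 1122 CPM and 10% above 61889 CPM. At D5 the median was 12928 CPM (10th to 90th percentile 965 to 61357), and at D19 it was 2879 CPM (532 to 36628). The median cDC1 held 48393, 47805 and 43185 CPM, below the 90th percentile of mature DC at D0 and D5 and above it at D19. In cDC1 at D0 the 10th percentile was 30340 CPM and the 90th 66782 CPM, a narrower range than in mature DC. T cells had a 90th percentile of 699, 814 and 597 CPM, which lay below the 10th percentile of mature DC at D0 and D5 and above it at D19.

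Mature DC with less than 5000 CPM of the 10 genes made up 33.5% (28.8 to 38.5) at D0, 38.4% (34.3 to 42.6) at D5 and 61.0% (58.0 to 63.9) at D19. Those with 20000 CPM or more made up 44.2% (39.1 to 49.3), 42.9% (38.7 to 47.2) and 20.1% (17.7 to 22.6). These limits were chosen after the values were seen, and a band is a range of a continuous level and not a cell type. In pDC the barcodes below 5000 CPM were 12.0%, 13.9% and 45.3%, and the median was 22431, 15191 and 5634 CPM. In B cells they were 0.100%, 0.541% and 1.22%, and the whole distribution shifted, with medians of 35567, 28179 and 25768 CPM.

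**Figure D4:**
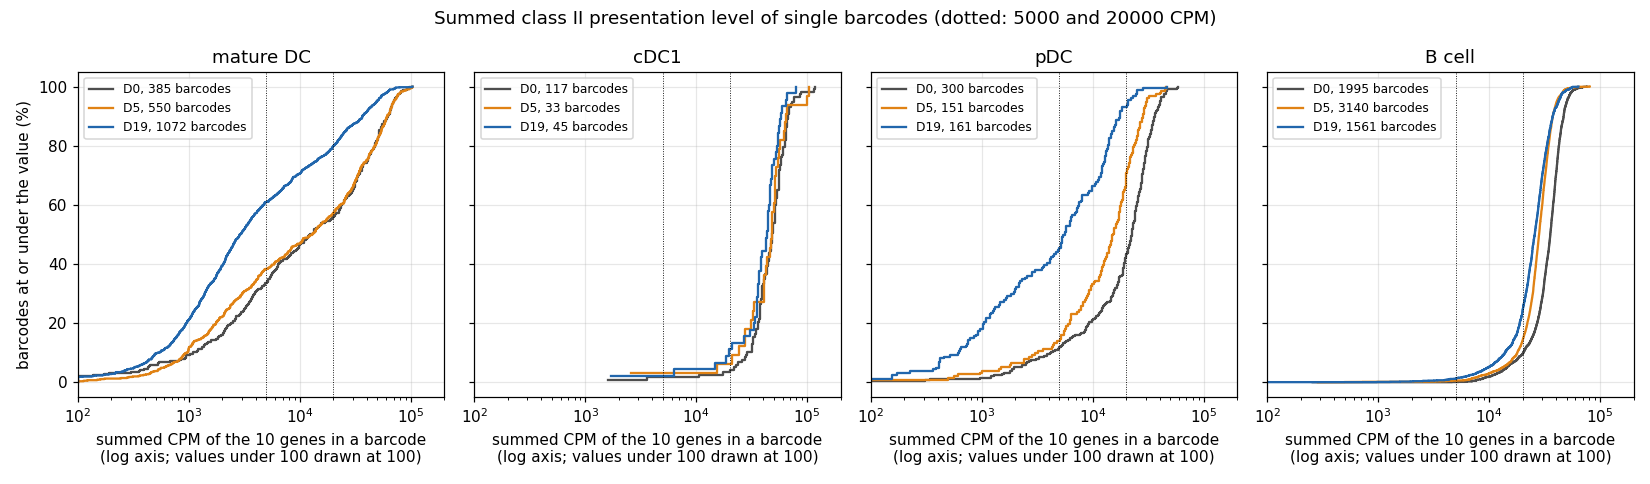
Cumulative share of barcodes (%) by the summed CPM of the 10 genes in each barcode (log axis, values under 100 CPM drawn at 100) in 4 lineages at D0, D5 and D19, with dotted lines at 5000 and 20000 CPM. In mature DC the D19 curve lies above those of D0 and D5, with 61.0% of barcodes below 5000 CPM, and the cDC1 curves lie close together.

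The abundant members went together from barcode to barcode. Across mature DC the pairwise Pearson r between Cd74, H2-Aa, H2-Ab1 and H2-Eb1 of the log2 depth-scaled level, ranged from 0.78 to 0.92 at D0 (385 barcodes), 0.85 to 0.93 at D5 and 0.75 to 0.84 at D19. In pDC they ranged from 0.78 to 0.88 over the 3 days and in B cells from 0.47 to 0.70. These values are given as a description, since barcodes share a library and its free RNA.

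Other genes were summed over the same bands of mature DC and are named here after their values were seen. What part T cell RNA had in their values was not tested. The high band (20000 CPM or more) held a smaller share of barcodes with T cell UMIs than the low band (under 5000 CPM), as given below. Il4i1, a secreted amino acid oxidase, stood at 711 and 286 CPM in these bands at D19, at 894 and 610 CPM at D5 and at 789 and 348 CPM at D0, so it was higher in the high than in the low band at each day, although the middle band was highest at D0 (806 CPM). Ifi30, the lysosomal thiol reductase that unfolds antigens, was 1575 and 800 CPM at D19, 1822 and 1061 CPM at D5 and 2049 and 834 CPM at D0. Cacnb3, a calcium channel subunit, was lower in the high than in the low band at each day, at 150 and 234 CPM at D0, 209 and 318 CPM at D5 and 181 and 257 CPM at D19. Ccl22, a chemokine of mature DC, had no fixed order, since at D0 and D5 it was highest in the middle band (533 and 381 CPM) and at D19 it was highest in the high band (645 CPM, against 338 CPM in the low band).

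T cell RNA was present in some mature DC, and its spread over days depended on the measure. The summed level of a list of 6 T cell markers was 866, 620 and 806 CPM in mature DC at D0, D5 and D19. The shares of barcodes that follow were counted without equal depth. At D0, 29.1% of mature DC held 2 or more UMIs of the genes Cd3d, Cd3e, Cd3g, Trac, Trbc1 and Trbc2, against 17.5% at D5 and 17.5% at D19, and in the band under 5000 CPM the share was 48.8%, 22.7% and 18.5%. Among the mature DC with no UMI of these genes (243, 384 and 825 barcodes) the sum of the 10 class II genes was 30960, 26327 and 12198 CPM. The D19 to D0 log2 ratio was then -1.34 (-1.36 to -1.33), larger than with all mature DC. The D5 to D0 ratio changed sign, from 0.09 (0.07 to 0.10) to -0.23 (-0.25 to -0.22), and H2-Eb1 and H2-Oa were then at 0.12 and 0.13. The median barcode of this subset held 22476, 14870 and 3130 CPM at D0, D5 and D19, where all mature DC had like medians at D0 and D5, so neither a higher nor a like level at D5 is a stable result. Each of the 10 genes was lower at D19 in this subset, by log2 ratios from -2.97 (-3.68 to -2.31) for H2-Ob, whose 6.61 CPM at D19 was below the T cell level, to -0.94 for H2-Eb1.

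Other markers were read in mature DC as well. The summed B cell list was 177, 190 and 501 CPM at D0, D5 and D19, of which Ighm, the IgM heavy chain, was 134, 115 and 460 CPM, and Pax5, a B cell transcription factor, stayed at or below 4.76 CPM. The summed plasma cell list was 34.1, 29.0 and 218 CPM, mainly Jchain at D19 (162 CPM). The macrophage list was 160, 124 and 115 CPM. Whether these other cells' RNA had a part in the class II difference was not tested.

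Mature DC were divided by the surface tags CD301b (Mgl2, a lectin of a type 2 DC subset) and XCR1 (the chemokine receptor of cDC1), each split into 2 clusters within a library by k-means on the tag's centred log ratio. At D0 there were 80 CD301b+ XCR1-, 109 CD301b- XCR1+ and 195 CD301b- XCR1- mature DC, at D5 there were 92, 91 and 366, and at D19 there were 377, 232 and 460. Only 1, 1 and 3 carried both tags. The XCR1+ cells had the least class II RNA at each day, at 8462, 7211 and 4442 CPM of the 10 genes, against 23814, 22721 and 13259 CPM in CD301b+ cells and 27998, 28185 and 12850 CPM in cells without either tag.

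The summed D19 level was below the summed D0 level in all 3 tag groups, which was not so for each gene. The log2 ratio of the sum was -0.84 (-0.87 to -0.82) in CD301b+ cells, -0.93 (-0.98 to -0.88) in XCR1+ cells and -1.12 (-1.14 to -1.10) in cells with neither. The share of barcodes below 5000 CPM was 27.5%, 35.9% and 56.2% in CD301b+ cells and 48.6%, 63.7% and 80.6% in XCR1+ cells at D0, D5 and D19. CD301b+ cells made up 20.8%, 16.7% and 35.2% of mature DC, and XCR1+ cells 28.3%, 16.5% and 21.6%. The clusters were set in each library separately, and the centre of the CD301b+ cluster was 1.57, 2.20 and 2.45 at D0, D5 and D19, so a tag group need not hold the same cells at each day.

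Single genes were then read in the tag groups, whose differences from each other were not tested. The log2 ratio of H2-DMa at D19 against D0 was -1.57 (-1.79 to -1.35) in cells without either tag, -0.29 (-0.64 to 0.07) in CD301b+ and 0.08 (-0.67 to 0.88) in XCR1+ cells. That of H2-Oa was -1.04 (-1.30 to -0.78), -0.25 (-0.68 to 0.20) and 0.02 (-0.90 to 0.996) in the same order. In XCR1+ cells H2-DMa was no higher than in T cells at any day, and H2-Oa overlapped T cells at D0 and D19. Both genes lay below free RNA at each day in XCR1+ and CD301b+ cells, and at D19 in cells without either tag. The XCR1+ ratios of these genes therefore cannot show whether they changed from D0. Against D5, H2-DMa was lower at D19 in cells without either tag (log2 ratio -1.34) and in CD301b+ cells (-0.76, -1.07 to -0.45). In XCR1+ cells its ratio was -0.83 (-1.47 to -0.20), between 2 levels no higher than in T cells. H2-Oa was at -1.25, -0.25 (-0.67 to 0.18) and -0.95 (-1.72 to -0.17) in the same order. Against D0, Ciita and H2-DMb1 were lower in CD301b+ cells (-1.46 and -1.11) and in cells without either tag (-2.09 and -2.04), and in XCR1+ cells their intervals included 0. Those XCR1+ intervals rest on 2 and 5 UMIs of Ciita and 6 and 18 UMIs of H2-DMb1 at D0 and D19. They cannot show whether either gene changed in XCR1+ cells. Free RNA held 142 of 2334878 and 33 of 862210 UMIs of Ciita at D0 and D19, and 320 and 53 UMIs of H2-DMb1. In CD301b+ cells both genes lay below free RNA at D0 and D19, as did H2-DMb1 in cells without either tag. Ciita in cells without either tag was above free RNA at D0 and below it at D19. The levels below free RNA are not shown to exceed background. Cd74 was lower in all 3 groups, by log2 ratios of -1.04 in CD301b+, -1.38 in XCR1+ and -1.25 in CD301b- XCR1- cells.

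H2-DMa and Ciita separated the XCR1+ mature DC from gated cDC1. H2-DMa stood at 31.1, 58.8 and 33.0 CPM in XCR1+ mature DC, where cDC1 had 674 CPM or more. These XCR1+ levels were no higher than those of T cells at any day. Ciita stood at 2.71, 1.37 and 3.66 CPM in XCR1+ mature DC, from 2, 1 and 5 UMIs, with intervals that overlapped those of T cells at each day, while the CD301b- XCR1- cells had 114, 101 and 26.6 CPM and the CD301b+ cells 41.3, 44.5 and 15.1 CPM. The tag groups differ in depth, with medians at D0 of 8519.5 UMIs in CD301b+ and 5439 UMIs in XCR1+ cells.

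**Figure D5:**
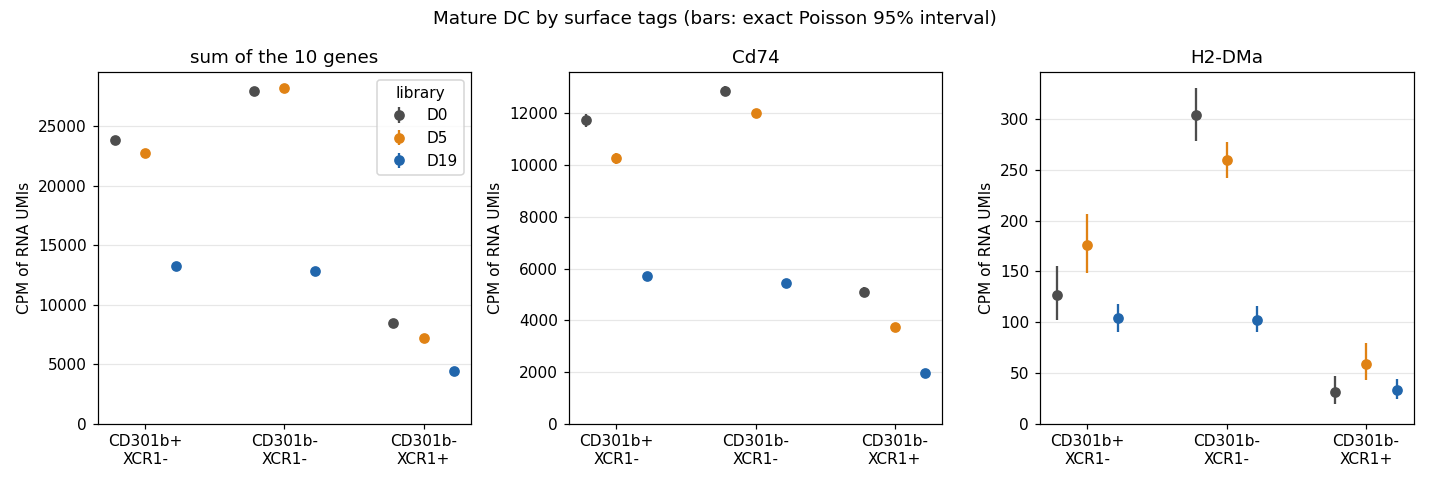
CPM of the 10 genes summed, of Cd74 and of H2-DMa in mature DC by surface tag group and day, 1 library per day, with exact Poisson 95% intervals. XCR1+ mature DC lie lowest in each panel at each day, and the D19 points of the sum lie at 13259 CPM in CD301b+, 12850 CPM in CD301b- XCR1- and 4442 CPM in XCR1+ cells.

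Mature DC were then set against cDC1 within each library, which holds the day and the library fixed. At D0 the sum of the 10 genes was 2.08-fold lower in mature DC (log2 difference -1.06, -1.07 to -1.04), at D5 1.89-fold lower (-0.92, -0.94 to -0.90) and at D19 3.67-fold lower (-1.88, -1.90 to -1.85). Past the fold were 4 of 10 members at D0, where 23.9% of genes passed in either direction, 5 of 10 at D5 (30.4%) and 9 of 10 at D19 (29.4%), all of them lower in mature DC. With barcodes of several gates counted in each, the difference of the sums was -0.71, -0.34 and -1.45, so its size depends on how those barcodes are assigned. The gap at D0 was also under 2-fold in barcodes without T cell transcripts (-0.71), without the highest doublet scores (-0.99), with free RNA subtracted (-0.97) and after rescaling (-0.96). H2-DMb1 had the widest gap, with log2 differences of -3.12, -3.38 and -4.44. Its mature DC level lay below free RNA at each day, so the size of that gap is uncertain. H2-DMb2 was the member that did not pass at D19. Against B cells the sum in mature DC was 1.39-fold, 1.09-fold and 2.02-fold lower (log2 difference -1.01 at D19), and at D19 the difference was under 2-fold with at least 2000 UMIs (-0.87), with barcodes of several gates counted in each (-0.86), with gates 1 UMI stricter (-0.95) and after rescaling (-0.91).

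Stromal barcodes, which include fibroblastic reticular cells, gave class II values that depended on the gate. Their sum was 326 CPM (141 to 643) at D0 from 8 UMIs in 4 barcodes, 2606 CPM (2374 to 2855) at D5 and 643 CPM (564 to 730) at D19. The D5 value came from few cells, since the median stromal barcode held 238 CPM and 2 of 32 held 5000 CPM or more. Without the barcodes that had any T cell UMI it was 297 CPM over 26 barcodes at D5. At D19 the median was 0 CPM, and Cd74 was found in 10.6% of stromal barcodes against 13.6% of T cells (median depths 4178 and 3670 UMIs), while 4 of 85 stromal barcodes held 5000 CPM or more of the 10 genes. With barcodes of several gates counted in each, the sum was 7585 CPM over 6 barcodes at D0, 6382 CPM over 46 at D5 and 1879 CPM over 93 at D19, and with gates 1 UMI stricter it was 3867 CPM over 5 barcodes at D0. With 4 barcodes at D0, no difference between days is given for stromal cells.

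Of the wider pathway, no gene at 50 or more CPM was past the fold in mature DC, where 2.85% of all genes were at D5 and 7.35% at D19. Of the 8 genes for lysosomal proteases and the thiol reductase, which prepare peptides and trim the invariant chain (Ctss, Ctsl, Ctsb, Ctsd, Ctsh, Ctsz, Lgmn, Ifi30), 6 were measured at 50 CPM or more in mature DC and none passed the fold at D5 or D19, with a median log2 difference of -0.13 at D19. Of the regulators and turnover genes (Rfx5, Rfxap, Rfxank, Nfya, Nfyb, Nfyc, Creb1, Spi1, Irf4, Irf8, March1, Cd83, Hdac2), 5 of 13 were measured and none passed in mature DC (median -0.29 at D19). The 9 measured class I genes and the 5 measured interferon-γ response genes also had none past the fold in mature DC, with medians of -0.10 and -0.11 at D19. With so few genes measured, a count of 0 is near the share over all genes, and nothing is read from it.

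In cDC1 3 genes of the lists passed, 2 at D5 and 1 at D19, a count near the share over all genes (4.61% at D5 and 8.59% at D19). March1, which encodes a ubiquitin ligase that removes class II from the surface, was 68.9 CPM at D0 and 148 CPM at D5 (log2 ratio 1.11, 0.68 to 1.52). Cxcl9, an interferon-γ-induced chemokine, was 674 CPM at D0 and 304 CPM at D5 (-1.15, -1.40 to -0.91). H2-Q7, a nonclassical class I gene, was 167 CPM at D0 and 58.5 CPM at D19 (-1.51, -2.14 to -0.94). In pDC at D19, 4 of 9 class I genes were lower by 2-fold or more, and in B cells 3 of 9 were, where the background was 7.42% of genes in pDC and 4.59% in B cells.

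The genes outside the set whose level followed it most closely were found over the 15 lineage-day groups among 5682 genes. With the mean log2 level of the 10 members, Clic1 had a Pearson r of 0.96, Napsa 0.96, Fam49b 0.95, Fmnl1 0.95 and Cd82 0.94. The nearest gene was Cd82 for H2-Aa (0.97) and H2-Eb1 (0.94), Fam49b for H2-Ab1 (0.95), Fmnl1 for Cd74 (0.97) and H2-Oa (0.96), Napsa for H2-DMa (0.98), Parvg for H2-DMb1 (0.97), Limd2 for H2-DMb2 (0.93), AB124611 for H2-Ob (0.96) and Cd24a for Ciita (0.93). Napsa, an aspartic protease, was 270, 216 and 98.7 CPM in mature DC. Within the set, r was highest between H2-Aa and Cd74 (0.99) and lowest between H2-DMb1 and H2-DMb2 (0.47). These groups share libraries and lineages and include stromal groups of few barcodes, so the values are a description.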

How the data were processed

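Unnormalised UMI counts of genes and of 11 surface tags were deposited as 1 matrix per library, made by the authors with Cell Ranger on build mm10 per the submitters' processing notes, with empty barcodes kept. Counts were summed over the barcodes of a lineage and divided by their RNA UMIs (CPM). No doublets were removed and no free RNA was subtracted in the values given. RNA UMIs numbered 45317389, 47653941 and 32013882 at D0, D5 and D19. The fold rule was tested on simulated data. No column of per-sample values was left unmapped. The members and lists were chosen with earlier results of these data known. The text names the 10 members, the genes most like them by Pearson r of log2(CPM + 10) (5 for their mean and 1 per member, among genes at 50 or more CPM in at least 1 group), and up to 4 genes per pathway list past the fold in mature DC or cDC1. H2-Eb2, Ighm, Jchain and the genes of the class II bands were named after their values were seen. Alternatives were at least 2000 UMIs, a filter on genes and mitochondrial share, barcodes of several gates counted in each, Scrublet scores (scanpy 1.11.5), stricter gates, free RNA subtraction, rescaling, a pseudocount of 1 and no low-value filter. Python 3.11.15, numpy 2.4.6, pandas 2.3.3, scipy 1.17.1 and scikit-learn 1.9.0 were used.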

Additional observations from a re-analysis of the deposited data

Results flagged for a closer look

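Ciita differed in direction between lineages at D19 against D0. Its log2 ratio was 0.61 in cDC1 and 0.43 in B cells, and -2.04 in mature DC and -1.40 in pDC. With 1 library per day this difference was not tested.

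H2-Oa differed in direction at D5 against D0, with a log2 ratio of 0.40 in mature DC and -0.61 in pDC. This difference was not tested either, and among mature DC without T cell transcripts the ratio was 0.13 (-0.09 to 0.36). The D5 levels of both lineages lay below that of free RNA.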

How the results depend on the processing

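No sum of the 10 genes past 2-fold changed direction under any alternative, but the mature DC sum at D19 against D0 was then under 2-fold with stricter gates and after rescaling, and so was mature DC against cDC1 at D0 under every alternative listed with its value here except stricter gates. Log2 ratios are given here. With at least 2000 RNA UMIs the B cell ratio at D19 against D0 was -0.62. With barcodes of several gates counted in each, the ratios at D5 and D19 against D0 were 0.0021 and -1.07 in mature DC, -0.36 and -0.32 in cDC1, -0.34 and -1.29 in pDC and -0.26 and -0.56 in B cells, and mature DC against cDC1 was -0.71, -0.34 and -1.45 at D0, D5 and D19. Without the highest doublet scores, D5 and D19 gave 0.047 and -1.07 in mature DC, -0.53 and -1.67 in pDC, D5 gave -0.30 in B cells, and mature DC against cDC1 was -0.99, -0.87 and -1.85. With gates 1 UMI stricter, D5 and D19 gave 0.22 and -0.87 in mature DC, -0.53 and -1.50 in pDC and -0.25 and -0.52 in B cells, and mature DC against cDC1 was -1.23, -0.97 and -1.91. With free RNA subtracted, D5 and D19 gave 0.15 and -1.15 in mature DC, D5 gave -0.075 in cDC1, D19 gave -1.61 in pDC and -0.44 in B cells, and mature DC against cDC1 was -0.97, -0.75 and -1.93. Rescaled by the median ratio of genes, which lay between -0.13 and 0.01, D5 and D19 gave 0.12 and -0.97 in mature DC, D19 gave -0.13 in cDC1, D5 and D19 gave -0.21 and -0.41 in B cells, and mature DC against cDC1 was -0.96, -0.78 and -1.79. In barcodes with 0 T cell transcript UMIs, chosen after seeing the data, D5 and D19 gave -0.23 and -1.34 in mature DC, -0.080 and -0.18 in cDC1, D19 gave -1.49 in pDC, D5 gave -0.33 in B cells, and mature DC against cDC1 was -0.71 and -0.86 at D0 and D5. The cause of these differences was not tested.

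Recomputed were 577 values, of single genes and of the sum in mature DC against B cells. Of these, 440 stayed within the interval of the reported value, 137 did not, and 24 had another sign. No paired analysis was possible because each day is 1 library. Counting error is small beside the unknown spread between mice, which 1 library per day does not show.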
